A study of Mus musculus with 12 samples.

Results

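Slc12a2 and Slc12a5 encode the chloride cotransporters NKCC1 and KCC2, and both were followed here in the hippocampus of young male mice whose dams had or had not drunk ethanol in early pregnancy. All probes that the platform annotation gives to either gene were taken, which made 6 of the 45281 probes on the array, 5 for Slc12a2 and 1 for Slc12a5. Expression was measured on Illumina bead arrays, with 1 array per sample. The EtOH group held 6 male C57BL/6J mice aged 3 weeks whose dams drank 10% ethanol by choice between 0.5 and 8.5 days after conception. The Control group held 6 males of the same strain and age. What the control dams drank is not given, and the records of the controls carry the same account of ethanol drinking as those of the EtOH group. Ethanol intake was voluntary, so the dose of each dam is not fixed by the design. The 12 arrays lay on 2 beadchips, each with 3 EtOH and 3 Control arrays. Litters are not stated, so the p-values rest on how far these 12 samples scatter, and technical scatter or shared litters may be in it.

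NKCC1 brings sodium, potassium and chloride into the cell together, while KCC2 uses the potassium gradient to carry chloride out. The balance of both sets the chloride gradient of a neuron and with it whether GABA, acting on chloride channels, depolarizes or inhibits the cell. In the rodent hippocampus KCC2 becomes abundant in neurons over the first weeks after birth. NKCC1 is not confined to neurons: glia, blood vessels and the choroid plexus, the epithelium in the ventricles that makes cerebrospinal fluid, use it too. WNK kinases act through SPAK and OSR1 to phosphorylate both proteins, which switches NKCC1 on and KCC2 off. That layer of control cannot be seen in RNA.

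The arrays detected between 20804 and 21672 probes each (detection p-value under 0.05), and 21263 probes detected on at least 6 of the 12 arrays were tested. Values are log2 normalized signals unless called intensities, and the level of a cotransporter probe was compared only with the same probe on other arrays. Brightness was ranked between probes only to choose which probe or marker to name. Of 10 neuron markers, 7 had a tested probe. Among them Syt1, a synaptic vesicle calcium sensor, averaged 15.42 ± 0.11 in the EtOH group and 15.33 ± 0.12 in the Control group (SD, n = 6 each). The listed probes of Snap25 and Nefl, also neuron markers, did not reach the detection filter on these arrays.

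Before any result, 4 arrays stood apart in Ttr, the gene for transthyretin, which the choroid plexus makes in bulk. Ttr read 10.08 on EtOH 1, 9.62 on EtOH 3, 11.00 on Control 1 and 8.33 on Control 4, against 15.56 to 15.81 on the other 8 arrays. In intensity that was 437.7 to 2171.2 on the 4 arrays, against 48403 to 59100.6 on the other 8. The high values lie close to the highest reading of each array (61021.4 to 66558.7), so differences among them are compressed. Of 16 listed choroid plexus markers, 12 had a tested probe, Ttr included, and the other 11 were also lower on the same 4 arrays than on any other, a pattern of 2.34% of all tested probes. Of these 11, 4 were detected on none of the 4 arrays and so passed the detection filter through the other 8 alone, which fixed their direction. Clic6 was detected on 2 of the 4 arrays, and Calml4, Aqp1 and Otx2 on 1 each. These also reached the filter through the other 8, so their direction is no separate evidence either. The remaining 3 (Msx1, Sostdc1 and Kl) were detected on all 12. Folr1, a folate receptor, lay between 4.75 and 4.94 on the 4 arrays against 9.24 to 9.94 on the rest, and Folr1 and Kcne2, a potassium channel subunit, were detected on 8 arrays. The mean of the 11 markers other than Ttr ran from 5.68 to 6.25 on the 4 arrays and from 9.18 to 9.73 on the other 8. Both treatment groups held 2 of these arrays, and 3 of them lay on beadchip 1 and 1 on beadchip 2. In bulk tissue, fewer cells of a type and less RNA per cell cannot be told apart.

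Slc12a5 is the member whose control regions could be shown. RefSeq gives it 2 start sites, and rat and mouse work names the upstream one KCC2a and the downstream one KCC2b, the main neuronal form. Its listed regulators include the E-box factors Usf1 and Usf2 and the early growth response factor Egr4, which is why the window around the downstream start is printed. It spans 250 bases before to 50 bases after the start on the plus strand of GRCm38.p6, at chr2:164967738-164968037, and the capitals mark an E-box, CACGTG.
Slc12a5 downstream start: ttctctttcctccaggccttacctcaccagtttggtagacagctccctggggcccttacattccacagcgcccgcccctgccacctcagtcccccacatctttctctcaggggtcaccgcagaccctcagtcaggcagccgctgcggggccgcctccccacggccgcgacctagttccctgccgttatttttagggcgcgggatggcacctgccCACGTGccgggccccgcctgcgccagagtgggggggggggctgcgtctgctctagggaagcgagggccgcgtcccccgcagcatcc
The E-box begins at base 215 of the window and reads the same on both strands. CACGTG occurs in 7.15% of the 32851 RefSeq promoter windows of this length. The upstream window, chr2:164960596-164960895, holds no CACGTG, and neither window holds GCGGGGGCG, an Egr motif searched on both strands that 2.91% of all windows contain. These matches describe the letters only. It was not tested which start the array's Slc12a5 probe reads.

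The ethanol comparison asks whether early exposure left a lasting difference in either cotransporter, and neither gene differed beyond the scatter of these samples. For Slc12a2, 2 of the 5 probes were detected, both on 12 of 12 arrays. The other 3 were detected on 0 of 12, with intensities of 100.5 to 132.7 and a lowest detection p-value of 0.09615.

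The brightest Slc12a2 probe read 12.45, 12.89, 12.21, 12.65, 12.95 and 12.51 on EtOH arrays 1 to 6. It read 12.73, 12.62, 12.75, 12.16, 12.55 and 12.67 on Control arrays 1 to 6. The groups overlapped almost fully: the highest 2 arrays were EtOH 5 and EtOH 2, while the lowest 2 were Control 4 and EtOH 3, both low in Ttr. As intensity, the signal lay between 4670.8 and 8149.2 in the EtOH group (median 6681.5) and between 4760.4 and 7018.1 in the Control group (median 6111.4). Means were 12.61 ± 0.28 in EtOH and 12.58 ± 0.22 in Control (SD, n = 6 each), a difference of 0.03 with a 95% interval of -0.26 to 0.31. This is a fold of 1.02 (0.836 to 1.24), with adjusted p = 1.00 in limma (Benjamini-Hochberg over all tested probes).

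The second detected Slc12a2 probe read 10.33, 11.18, 10.56, 11.19, 11.16 and 10.83 on EtOH arrays 1 to 6. On Control arrays 1 to 6 it read 10.73, 10.88, 11.05, 10.02, 10.66 and 10.94. It averaged 10.87 ± 0.37 in EtOH and 10.71 ± 0.37 in Control (SD, n = 6 each), and the 3 highest arrays were all EtOH. The difference was 0.16 (-0.24 to 0.57), a fold of 1.12 (0.846 to 1.48), with adjusted p = 1.00 in limma. Across the 12 arrays the 2 probes moved together (Pearson r = 0.848, Spearman rho = 0.811), and less closely over the 8 arrays high in Ttr (r = 0.767, rho = 0.714).

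Slc12a5 was dim, with intensities of 234.9 to 348.4, though its probe was detected on all 12 arrays. It read 7.67, 7.37, 7.80, 7.72, 7.50 and 7.05 on EtOH arrays 1 to 6, and 7.04, 7.69, 7.65, 7.79, 7.73 and 7.64 on Control arrays 1 to 6. Control 1 and EtOH 6 lay well below the rest, 1 in each group, and the other 5 Controls stayed within 7.64 to 7.79. Means were 7.52 ± 0.28 in EtOH and 7.59 ± 0.28 in Control (SD, n = 6 each). The difference was -0.07 (-0.39 to 0.24), a fold of 0.951 (0.766 to 1.18), with adjusted p = 1.00 in limma.

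**Figure D1:**
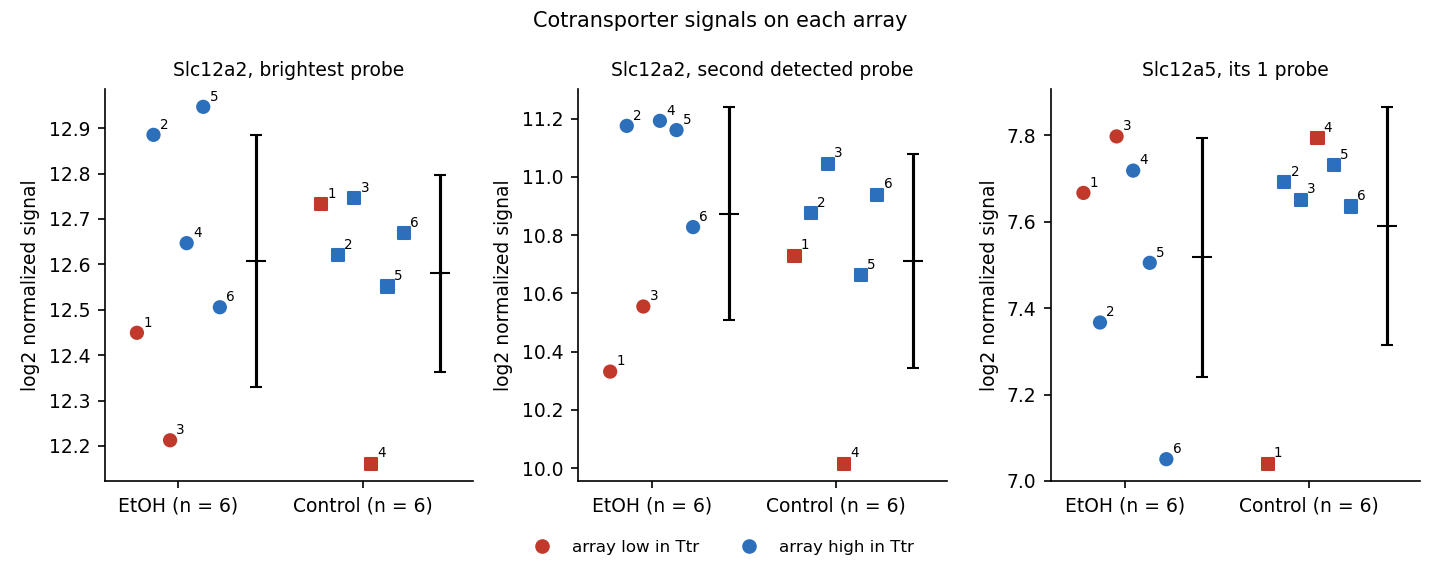
Log2 normalized signal (vertical axes) of the 2 detected Slc12a2 probes and the Slc12a5 probe on each EtOH and Control array, numbered by replicate, with the mean and SD of each group beside the points. EtOH and Control overlap in all 3 panels, and 3 of the 4 arrays low in Ttr (red) lie at the bottom of both Slc12a2 panels but not of the Slc12a5 panel.

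Over the whole array, 0 of 21263 probes passed an adjusted p of 0.05 in limma (0.0%), and the lowest adjusted p was 0.731. Without adjustment, 1022 probes (4.81%) had p under 0.05, of which 522 (2.45%) were higher and 500 (2.35%) lower in EtOH. None of the 3 detected cotransporter probes was among them.

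Leaving out the 4 arrays low in Ttr gave differences that remained short of the threshold. With 4 EtOH and 4 Control arrays, Slc12a2 differed by 0.10 (-0.15 to 0.34) on the brightest probe and by 0.21 (-0.05 to 0.47) on the second. Slc12a5 differed by -0.27 (-0.56 to 0.02), with adjusted p = 0.961 in limma, against -0.07 over all 12 arrays; over all alternatives its adjusted p ran from 0.829 to 1.00. With Ttr as a covariate, the differences were 0.02 (-0.20 to 0.24) for Slc12a2 and -0.07 for Slc12a5.

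The direction differed between beadchips, though a test of that difference did not pass. On beadchip 1 the difference was -0.18 for Slc12a2, -0.20 for its second probe and 0.15 for Slc12a5, and on beadchip 2 it was 0.24, 0.52 and -0.30 in the same order. In limma the interaction of ethanol with beadchip had adjusted p = 0.999 for each of the 3 probes. Beadchip 1 held 2 EtOH arrays and 1 Control array low in Ttr, and beadchip 2 held 1 such Control array. Their part in the split was not tested.

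The balance of both cotransporters was expressed on each array as log2 Slc12a5 minus log2 Slc12a2. Its level depends on the probes, so it is given as the distance from the mean of the 12 arrays, with a positive value meaning relatively more Slc12a5. It was 0.26, -0.48, 0.63, 0.11, -0.40 and -0.42 on EtOH arrays 1 to 6, and -0.65, 0.11, -0.06, 0.67, 0.22 and 0.01 on Control arrays 1 to 6. The widest values of either sign came from arrays low in Ttr, and the groups overlapped throughout. EtOH minus Control was -0.10, with SDs of 0.45 in EtOH and 0.43 in Control (n = 6 each) and p = 0.682 in a two-sided exact permutation test over 924 splits. With the second Slc12a2 probe the difference was -0.24 (exact permutation p = 0.450).

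Among the 8 arrays high in Ttr the difference in balance was -0.37 (exact permutation p = 0.0857, where 0.0286 is the smallest p this design allows), and over all alternatives the permutation p of the balance ran from 0.0857 to 0.957. In these arrays EtOH 2, 5 and 6 lay below all 4 Controls, while EtOH 4 lay among the Controls. Within beadchip 1 the difference was 0.33 (exact permutation p = 0.4), and within beadchip 2 it was -0.53 (p = 0.2), where 0.1 is the smallest p possible. The difference between the beadchips was -0.87 (permutation p = 0.095) with the brightest Slc12a2 probe and -1.16 (p = 0.05) with the second, neither under 0.05.

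**Figure D2:**
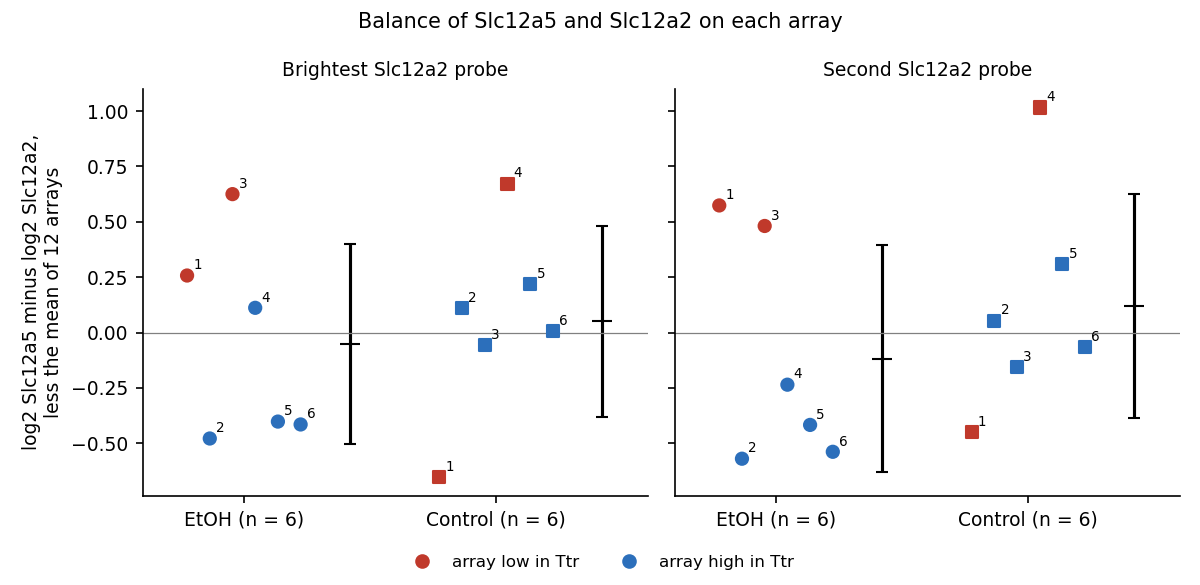
Balance of each array (vertical axis, log2 Slc12a5 minus log2 Slc12a2, less the mean of 12 arrays) for the brightest and the second Slc12a2 probe, with the mean and SD of EtOH and Control. Of the 4 arrays low in Ttr (red), EtOH 1, EtOH 3 and Control 4 lie above all 8 others in both panels, and Control 1 lies near or at the bottom.

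Slc12a2 was lower on 3 of the 4 arrays low in choroid plexus markers. On the 4 arrays low in Ttr the brightest Slc12a2 probe lay between 12.16 and 12.73, against 12.51 to 12.95 on the other 8. EtOH 1, EtOH 3 and Control 4 fell below all 8, and the exception was Control 1 at 12.73. The second probe gave 10.02 to 10.73 on the 4 arrays and 10.66 to 11.19 on the 8, with the same 3 arrays below all others and Control 1 below the median of the 8 (10.99). The same pattern, at least 3 of the 4 arrays below all others, was seen for 1321 probes (6.21% of those tested), 498 (2.34%) had all 4 below, and 225 (1.06%) had all 4 above. Since the 4 arrays were picked by a measured signal, their difference from the rest is given with no test.

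Slc12a5 did not share this pattern, with 7.04 to 7.80 on the 4 arrays low in Ttr and 7.05 to 7.73 on the other 8. EtOH 3 at 7.80 and Control 4 at 7.79 lay above all 8, EtOH 1 at 7.67 lay among them, and Control 1 at 7.04 lay just below them. The balance was 0.26, 0.63 and 0.67 above the mean on EtOH 1, EtOH 3 and Control 4, more than on any of the other 8 (-0.48 to 0.22). On Control 1 it was 0.65 below the mean, the lowest of all 12: this array combined a high Slc12a2 signal with the lowest Slc12a5 signal.

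Because Ttr divides the arrays into separate sets, no correlation with it over all 12 was computed as a test. Within the 8 arrays high in Ttr, Slc12a2 and Ttr had r = 0.102 (exact permutation p = 0.821; rho = 0.168, p = 0.692; r = 0.115 without the 2 arrays farthest in Ttr). Slc12a5 had r = -0.311 with Ttr (exact permutation p = 0.395; rho = -0.228, p = 0.589; r = -0.404 without 2 arrays). The balance had r = -0.319 (exact permutation p = 0.511; rho = -0.299, p = 0.471; r = -0.420 without 2 arrays). Adjusted over the 4 relations of this kind, the p-values of r were 0.821, 0.682 and 0.682. With the mean of the other 11 choroid plexus markers in place of the compressed Ttr signal, r was 0.317 for Slc12a2 (exact permutation p = 0.448), -0.289 for Slc12a5 (p = 0.448; rho = -0.690, p = 0.0694, adjusted 0.139) and -0.421 for the balance (p = 0.308). With arrays scaled to a common median, Slc12a2 and Ttr had r = 0.432 (exact permutation p = 0.285). None of these passed. The beadchips held 3 and 5 of these arrays, too few for a value within each.

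The fourth relation set the cotransporters against each other. Over 12 arrays Slc12a2 and Slc12a5 had r = -0.410 (permutation p = 0.181, adjusted 0.682) and rho = -0.643 (permutation p = 0.0284, adjusted 0.114), so it did not pass the correction over all 12 arrays. Without EtOH 6, the array with the second lowest Slc12a5 signal, rho was -0.845 (permutation p = 0.0019, adjusted 0.0076), which passes, while r was -0.602 (adjusted 0.191). No other single array had this effect. Leaving out each of the others in turn gave rho of -0.655 to -0.545 (permutation p adjusted 0.134 to 0.355), so that pass rests on the choice of array. Without the 2 arrays farthest in Slc12a2, r was -0.132. Within beadchip 1 it was -0.630 (exact permutation p = 0.2) and within beadchip 2 -0.192 (p = 0.601). Over the 8 arrays high in Ttr it was 0.03.

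**Figure D3:**
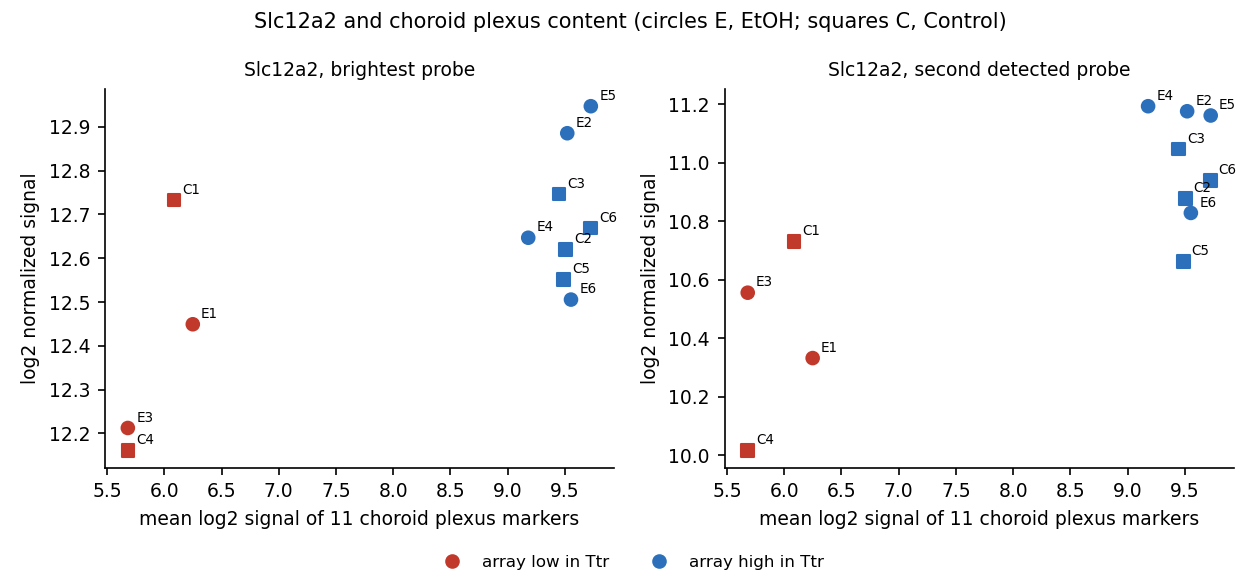
Log2 signal of the 2 detected Slc12a2 probes (vertical axes) against the mean log2 signal of 11 choroid plexus markers other than Ttr (horizontal axes), 1 point per array. The 4 arrays low in Ttr lie at 5.68 to 6.25 and the other 8 at 9.18 to 9.73, and Control 1 (C1) is the low array whose Slc12a2 signal is within the range of the 8 on both probes.

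Slc12a2 was also set against oligodendrocyte lineage markers, a comparison chosen after the values were seen. Mbp, Cldn11, Mag and Mobp, genes of the myelin sheath, were the brightest of the 12 markers tested. Their list averaged 11.62, 11.93, 11.75, 12.13, 11.93 and 11.81 on EtOH arrays 1 to 6, and 12.09, 11.77, 12.02, 11.68, 11.92 and 11.95 on Control arrays 1 to 6. EtOH 1, Control 4 and EtOH 3, which were lowest in Slc12a2, were also the 3 lowest here, and Control 1 was the second highest.

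Over 12 arrays the brightest Slc12a2 probe had r = 0.668 with this mean (permutation p = 0.0168, adjusted 0.0672 over 8 relations) and rho = 0.734 (permutation p = 0.00896, adjusted 0.0358). The second probe had r = 0.732 (permutation p = 0.00604, adjusted 0.0483) and rho = 0.748 (adjusted 0.0358). The adjustment covers these 8 relations alone and not the choice of this list after the values were seen. The 12 arrays also mix the sets low and high in Ttr. For both reasons the adjusted values under 0.05 are not read as passes. The relation rests in part on EtOH 1 and Control 4, the arrays farthest from the median marker mean: without them r was 0.532 (permutation p = 0.111) for the brightest probe and 0.477 (p = 0.164) for the second, over 10 arrays. Both of these arrays are low in Ttr. Within the 8 arrays high in Ttr, r was 0.258 (exact permutation p = 0.542) for the brightest probe and 0.572 (p = 0.135) for the second. Within beadchips 1 and 2, r was 0.699 and 0.679 for the brightest probe, and 0.654 and 0.854 for the second. Slc12a5 had r = -0.313 (permutation p = 0.325) with the same mean over 12 arrays, but 0.417 (exact permutation p = 0.295) over the 8 arrays high in Ttr. The balance had r = -0.572 (permutation p = 0.0533, adjusted 0.142) and rho = -0.671 (permutation p = 0.0204, adjusted 0.0543) over 12 arrays. Over the 8 arrays high in Ttr its r was 0.208 (exact permutation p = 0.623). The sign of both thus changed with the set of arrays.

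**Figure D4:**
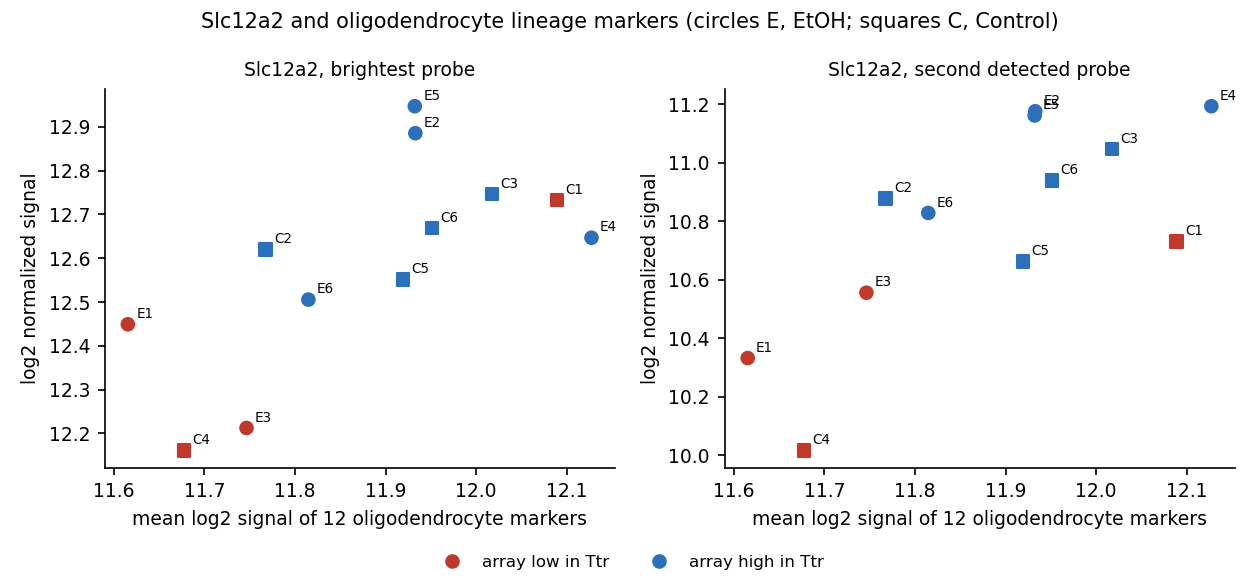
Log2 signal of the 2 detected Slc12a2 probes (vertical axes) against the mean log2 signal of 12 oligodendrocyte lineage markers (horizontal axes), 1 point per array. EtOH 1, EtOH 3 and Control 4 (E1, E3, C4) are low on both axes, while Control 1 (C1), the fourth array low in Ttr, lies at 12.09 among the highest.

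The genes most like each cotransporter over the 12 arrays were ranked by Pearson r among 11400 other genes, as a description, since all points share the arrays and their makeup. For Slc12a2 the highest were Dhrs7, a dehydrogenase/reductase, at 0.913, Slc44a1, a choline transporter, at 0.877, Plekhg3 at 0.876, Cfap206, a cilium protein, at 0.858, Bbox1, the last enzyme of carnitine synthesis, at 0.856, and Mdh1b at 0.852. With the second Slc12a2 probe, Slc44a1 had 0.913 and Cfap206 0.869, while Dhrs7 had 0.755, Plekhg3 0.772, Bbox1 0.662 and Mdh1b 0.783. The most opposed to the brightest probe were Nnmt, nicotinamide N-methyltransferase, at -0.863, Atp13a2, a lysosomal transporter, at -0.819, and Rasl11a at -0.809. With the second probe they had -0.790, -0.857 and -0.628 in that order. Ttr, at 0.725 with the brightest probe, came 105th.

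Over the 8 arrays high in Ttr the order changed, and Zfp286 at 0.960, Asprv1 at 0.947, Shprh at 0.926 and Zfp607b at 0.913 led for Slc12a2. Dhrs7 stayed at 0.846 and Slc44a1 also at 0.846 there, against 0.560 and 0.916 with the second Slc12a2 probe.

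For Slc12a5 the highest over 12 arrays were Pnpla6, a phospholipase of the nervous system, at 0.892, Tnnc1, a troponin, at 0.887, Impdh1, an enzyme of guanine nucleotide synthesis, at 0.878, Grb7 at 0.847, Atpif1, an inhibitor of the mitochondrial ATPase, at 0.845, and Slc47a1 at 0.841. The most opposed were Rnf187 at -0.857, Gpr22 at -0.837 and Kcna1, a potassium channel of axons, at -0.837. Over the 8 arrays high in Ttr, Pnpla6 again led at 0.968, followed by Hsph1 at 0.940, Hrob at 0.937 and Ung at 0.934.

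The other members of the cotransporter family gave no call either. Of 9 family genes, 6 had a tested probe, and 0 of 6 passed, with 4 higher and 2 lower in EtOH and a median difference of 0.07 against 0.00 over all probes. Slc12a1, the kidney cotransporter NKCC2, differed by -0.23 on a dim probe. Slc12a3, the thiazide-sensitive sodium chloride cotransporter, differed by 0.11, Slc12a8 by 0.20 and Slc12a9 by 0.10, with adjusted p = 1.00 in limma for each. Slc12a9 had 2 further probes, at 0.20 and 0.14. Of 6 Slc12a1 probes and 5 Slc12a3 probes, 1 each was tested, and the others were detected on at most 1 array. Slc12a4 (KCC1) was detected on at most 2 arrays and Slc12a7 (KCC4) on 0.

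Kinases and partner proteins that act on the cotransporters had a tested probe for 15 of 17 genes, and 0 of 15 passed. Differences ran from -0.12 to 0.12 with a median of -0.02, 7 higher and 8 lower in EtOH (10 and 5 with arrays scaled to a common median), with adjusted p = 1.00 in limma for each. Wnk1, a kinase at the head of the pathway, differed by -0.12, Wnk2 by 0.11, Capn1, a protease that cleaves KCC2, by 0.12 and Itch, a ubiquitin ligase, by 0.07, with another Itch probe at -0.10. The 3 other Wnk1 probes lay between -0.16 and -0.12.

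A pair of genes on that list separated the arrays by Ttr, singled out after their values were seen. Stk39, which encodes SPAK, lay between 10.13 and 10.35 on the 4 arrays low in Ttr and between 10.72 and 10.94 on the other 8. Cab39l, related to the SPAK partner MO25, lay between 8.91 and 9.34 against 10.18 to 10.87. Such full separation held for 2.34% of all tested probes, and Slc12a2 itself did not show it.

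Regulators of Slc12a5 transcription gave 0 calls among 6 tested of 9 genes, with a median difference of -0.02. Usf1 differed by -0.05, Usf2 by 0.05, Egr4 by -0.04 and the growth factor Igf1 by -0.03. Second probes of Usf1 and Usf2 gave 0.14 and 0.15. Bdnf, named after its values were seen, differed by -0.01 on its brightest probe and by -0.16 to 0.29 on its others. The probe at 0.29 had an interval of 0.0004 to 0.57, which left out 0, and it was not called after adjustment.

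Among other chloride and bicarbonate routes, 0 of 15 tested of 21 genes passed, with a median of 0.00. Clcn4, a chloride-proton exchanger of endosomes, lay between 7.93 and 8.41 in EtOH and between 7.36 and 8.11 in Control. It differed by 0.30 (95% interval 0.05 to 0.56; adjusted p = 1.00 in limma), and among the brightest probes of the 15 genes it was the single one whose interval left out 0. Slc26a4, an anion exchanger, differed by -0.15, Slc4a4, a sodium bicarbonate cotransporter, by -0.20 (its other probe -0.01), and Lrrc8a, the core of the volume-regulated anion channel, by 0.16 (its other probe 0.28, with an interval of 0.03 to 0.53 that also left out 0). Slc4a2, a chloride-bicarbonate exchanger of choroid plexus, was named after its values were seen. It separated the arrays by Ttr, at 9.34 to 9.56 on the 4 low arrays against 10.49 to 11.00 on the others. This held for 1 of the 15 genes, against 2.34% of all tested probes.

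The sodium-potassium pump, whose gradients drive both cotransporters, was read by 3 of its 6 listed genes, none called. Atp1b1 differed by 0.13 (-0.03 to 0.30), Atp1b3 by -0.04 and Atp1b2 by 0.02, all subunits of the beta class.

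**Figure D5:**
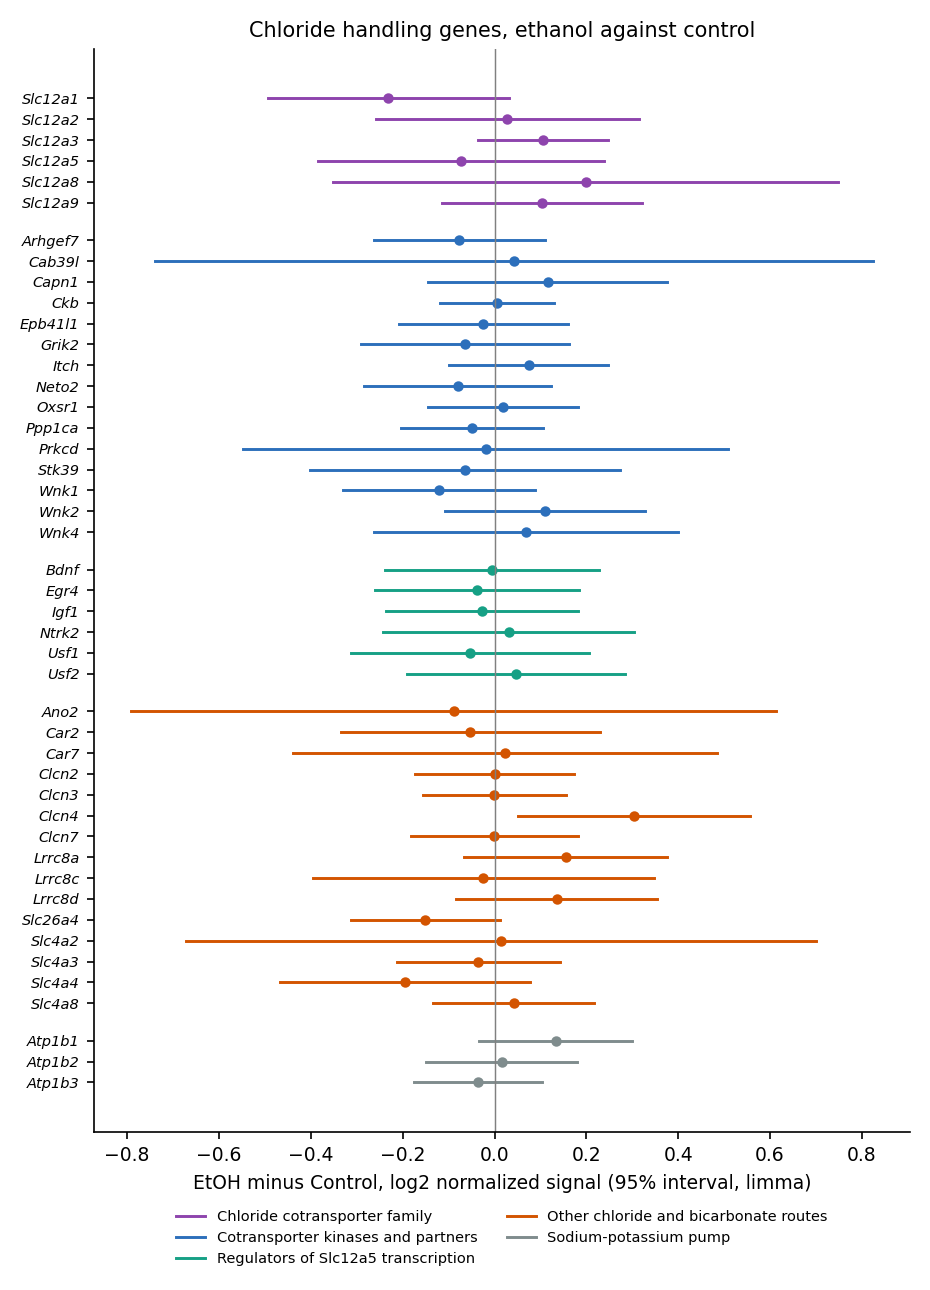
EtOH minus Control difference of log2 normalized signal (horizontal axis) for each tested gene of the cotransporter family and 4 related lists, with 95% limma intervals. Each gene is shown by its brightest tested probe, and of these intervals all but that of Clcn4 include 0; none was called after adjustment.

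Marker lists gave no call between the groups. The choroid plexus list had a median difference of 0.04 over 12 genes, the oligodendrocyte list -0.04 over 12, the endothelial list 0.01 over 7 and the neuron list 0.05 over 7. In the oligodendrocyte list 1 of the 12 had p under 0.05 in limma without adjustment, against 4.81% of all tested probes. Astrocyte markers had a median of 0.01 over 8, with Slc1a3, Aldoc, Gja1 and Gjb6 the brightest, and 2 of the 8 had p under 0.05 without adjustment, against 4.81% of all tested probes. These, named after their values were seen, were Aqp4, the astrocyte water channel, at -0.41 (-0.69 to -0.13; adjusted p = 0.997 in limma), and Gjb6, a gap junction protein, at 0.17 (0.01 to 0.34; adjusted p = 1.00), which point in opposite directions. Apart from the brightest probes, another Aldoc probe differed by 0.34 (0.11 to 0.58, adjusted p = 0.997 in limma). Other probes of Gfap and Slc1a2 lay between -0.25 and -0.05. In the endothelial list another Pecam1 probe differed by 0.44 (0.02 to 0.87) and was not called after adjustment. Microglia markers had a median difference of -0.10 over 7, with 0 higher and 7 lower in EtOH (2 and 5 with arrays scaled to a common median) and adjusted p = 1.00 in limma for each.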

How the data were processed

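Male hippocampal RNA from 6 EtOH and 6 Control mice was read on Illumina arrays after column isolation and Cy3 labelling, per the labels' protocols. The deposited table of intensities, which the authors had not normalized, came from GenomeStudio 1.9.0, per the submitters' processing notes; a detection p-value stands beside each intensity, per the file headers. The deposited series table of processed intensities (median 141.6 on every array) served as an alternative.

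Intensities were background corrected by normexp through the detection p-values with an offset of 16, quantile normalized and put on the log2 scale, so the values are no longer log2 of the deposited intensity (limma 3.58.1, statmod 1.5.0, R 4.3.3). The offset draws differences of dim probes, such as Slc12a5, towards 0. Of the 21263 tested probes, 18064 had 1 gene (11401 genes), 9 several and 3190 none. Groups were compared with lmFit and eBayes, p-values being adjusted by Benjamini-Hochberg across the tested probes (threshold 0.05), and balances by exact permutation. The number of arrays limits precision. For genes with several probes the brightest stood for the gene. The arrays were divided by Ttr at its widest gap.

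The members and lists were chosen with earlier results of these data known. Named genes were the family, the genes with the 6 highest and 3 lowest correlations with each member (4 highest over the arrays high in Ttr), and the 4 smallest p-values, or of marker lists the brightest genes, per list. The fit was tested on simulated data. Alternatives were another background or scaling, detection filters, array weights, beadchip or replicate blocks, Ttr as a covariate and leaving out arrays.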

Additional observations from a re-analysis of the deposited data

Results flagged for a closer look

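In 3 of the 14 group and probe combinations examined, a single array lay far from the other 5 of its group, by a gap over 0.625 of the whole range (Dixon's 95% value for 6 samples). Chance gives about 1 in 20 groups where these are independent. Here they are not, since both Slc12a2 cases are the same array read by probes that moved together (r = 0.848). Slc12a2 read 12.16 on Control 4, against 12.55 to 12.75 on the other Controls, and its second probe read 10.02 there, against 10.66 to 11.05. Control 4 is the array lowest in Ttr, with a Ttr signal of 8.33. Slc12a5 read 7.04 on Control 1, against 7.64 to 7.79 on the other Controls. Control 1 is also low in Ttr, at 11.00. The part of these levels in each value was not tested.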

How the results depend on the processing

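No probe was called under any alternative run, by any choice of background, scaling, filter, block, weights or left-out array. The signs of the differences were less fixed, none having passed its test. On beadchip 1 alone the balance difference was 0.33, that of Slc12a2 -0.18 and that of Slc12a5 0.15. Leaving out 1 array in turn gave -0.241 to 0.0239 for the balance (positive without Control 4), -0.0563 to 0.107 for Slc12a2 (negative without EtOH 2, EtOH 5 or Control 4) and -0.183 to 0.0204 for Slc12a5 (positive without EtOH 6, lowest without Control 1). Within the arrays high in Ttr, deviations from group means gave correlations with Ttr of -0.202 for Slc12a2, 0.197 for Slc12a5 and 0.336 for the balance. Scaling to a common median gave 0.109 for Slc12a5. The second Slc12a2 probe against the other choroid plexus markers, chosen after seeing the data, gave -0.178, and leaving out 1 array gave -0.239 to 0.506 for Slc12a2 (negative without EtOH 5). The cause of these changes was not tested. Under a common median the p values under 0.05 split into 942 higher and 256 lower, and the median of all probes moved to 0.05.

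Deviations of same-numbered EtOH and Control arrays from their group means had correlations of -0.248 to 0.328. These were not compared with differently numbered arrays, so they cannot settle whether the numbers pair the arrays. The main fits took no pairing. With the replicate block, differences were 0.03 for Slc12a2, -0.07 for Slc12a5 and -0.10 for the balance (exact permutation p = 0.719), 1078 probes had p under 0.05 in limma, and 0 were called. The Slc12a5 probe is dim, and Ttr is near the top of the scale, which limits both.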
